A study of Mus musculus with 4 samples.

Results

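The genes described here are the mouse WNT ligands, their Frizzled and LRP receptors, the R-spondins with their LGR receptors, and the inhibitors that act on them. They were taken by symbol: Wnt, Fzd, Sfrp, Dkk and Rspo genes with a number, Lgr4, Lgr5 and Lgr6, and Lrp5, Lrp6, Wif1, Axin2, Znrf3 and Rnf43. This gave 47 of the 28545 genes in the tables: 16 ligands, 10 Frizzled receptors, 2 LRP coreceptors, 4 R-spondins, 3 R-spondin receptors, 4 SFRP inhibitors, 4 DKK inhibitors, Wif1 and 3 feedback inhibitors.

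WNT ligands are secreted lipid-modified proteins that bind a Frizzled receptor together with the coreceptor LRP5 or LRP6, which stabilises β-catenin and switches on TCF/LEF target genes, while other WNT ligands act through Frizzled and ROR2 without β-catenin. ZNRF3 and RNF43 remove Frizzled receptors from the cell surface, and R-spondins bound to an LGR receptor neutralise ZNRF3 and RNF43. SFRP proteins and WIF1 bind the ligands outside the cell, and DKK proteins act at the coreceptors. In the uterus, the pathway is known for its parts in Müllerian duct patterning, gland formation and the stromal response to the embryo, with WNT7A a ligand of the luminal epithelium and WNT4 and WNT5A ligands of the stroma and mesenchyme.

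RNA from the uterus, labelled as endometrium, of mice in proestrus was sequenced in 4 libraries. The 2 libraries labelled SMAD7fl/fl carry loxP sites in Smad7, made by injecting Cas9 mRNA, a guide RNA and a donor into fertilised eggs, and their treatment is recorded as blank; they are called floxed 1 and floxed 2. The 2 libraries labelled SMAD7 Cre+/-, with the treatment CKO, are called Cre 1 and Cre 2, and the study's design describes them as a knockout of Smad7, an inhibitor of TGF-β receptor signalling. The sources used here do not give the promoter that drives Cre, the cells in which it acts, the age of the mice or how many mice stand behind a library. No source says that the libraries of a group came from separate mice, so the p-values measure a spread that may be technical.

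CPM is the count of a gene scaled to a common library size, with the library sizes adjusted by TMM, and FPKM is also scaled by gene length. Smad7 stood at 34.3 CPM in floxed 1 and 36.8 CPM in floxed 2, and at 227.6 and 154.0 CPM in Cre 1 and Cre 2, a log2 fold change of 2.42 ± 0.28 (SE; edgeR adjusted p = 0.0982). This goes against the labels. Whether reads outside the removed part carry the higher values was not tested, as the removed exons are not given. The groups are therefore called by their labels throughout. The floxed libraries were less alike than the Cre libraries: Spearman's correlation across genes was 0.908 within the floxed group, 0.985 within the Cre group and 0.912 to 0.92 between the groups, where genes are not independent replicates. Total counts were 17444368 to 22950532 per library. All 13 luminal epithelial and all 10 stromal markers listed passed the expression filter, and so did 11 of 12 smooth muscle markers.

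Genes whose FPKM averaged at least 1 over the 4 libraries were tested with edgeR's quasi-likelihood test, Cre against floxed, with Benjamini-Hochberg adjustment over the 13513 genes tested. Of the 47 WNT genes, 36 were tested and 11 lay under the filter. Lgr6 and Wnt2b passed the filter only through the Cre group, and Lgr5 and Wnt2 only through the floxed group, so these 4 had to differ to be tested and counts over the tested genes are descriptions only.

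Sequences upstream of genes with an unadjusted p under 0.05 are shown first, so that promoters of genes that differed in opposite directions can be set side by side. RefSeq promoters (GRCm38.p6) were matched by symbol for 30 of the 47 genes, with 34 start sites. Of the genes with an unadjusted p under 0.05, those whose 250 bases before the RefSeq start lie wholly outside the GENCODE gene are printed, 5′ to 3′ on the gene's own strand. Capitals mark matches, on either strand, to a TCF/LEF motif, searched as CTTTGAA and its variants ending in the letters AT, TA and TT in place of AA, or to the SMAD motifs CAGAC (the short SMAD box) and GGCGCC. Lgr6 and Lgr4 were higher in the libraries labelled Cre, and the other 4 genes were lower.
Lgr6 (GRCm38.p6 chr1:135105277-135105526, minus strand): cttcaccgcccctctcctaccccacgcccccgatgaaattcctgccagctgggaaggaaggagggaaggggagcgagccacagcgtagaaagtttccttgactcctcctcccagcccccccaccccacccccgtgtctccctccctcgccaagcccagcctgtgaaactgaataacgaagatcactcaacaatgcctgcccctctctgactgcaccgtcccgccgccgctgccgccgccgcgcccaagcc
Lgr4 (GRCm38.p6 chr2:109917397-109917646, plus strand): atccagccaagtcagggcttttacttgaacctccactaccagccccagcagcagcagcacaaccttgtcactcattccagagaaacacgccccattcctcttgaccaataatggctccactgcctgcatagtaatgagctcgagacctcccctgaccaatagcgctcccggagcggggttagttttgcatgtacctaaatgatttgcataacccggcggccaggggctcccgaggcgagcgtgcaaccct
Sfrp2 (GRCm38.p6 chr3:83766071-83766320, plus strand): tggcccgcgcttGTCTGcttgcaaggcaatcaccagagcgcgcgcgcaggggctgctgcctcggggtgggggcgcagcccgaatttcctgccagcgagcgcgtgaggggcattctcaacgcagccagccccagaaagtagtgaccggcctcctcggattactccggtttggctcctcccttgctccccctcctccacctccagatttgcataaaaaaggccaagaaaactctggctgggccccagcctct
Wnt16 (GRCm38.p6 chr6:22287977-22288226, plus strand): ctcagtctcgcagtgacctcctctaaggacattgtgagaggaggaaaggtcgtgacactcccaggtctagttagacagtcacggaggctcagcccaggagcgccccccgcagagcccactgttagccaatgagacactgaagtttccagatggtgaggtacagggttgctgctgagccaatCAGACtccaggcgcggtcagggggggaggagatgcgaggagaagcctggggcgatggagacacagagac
Wnt6 (GRCm38.p6 chr1:74771642-74771891, plus strand): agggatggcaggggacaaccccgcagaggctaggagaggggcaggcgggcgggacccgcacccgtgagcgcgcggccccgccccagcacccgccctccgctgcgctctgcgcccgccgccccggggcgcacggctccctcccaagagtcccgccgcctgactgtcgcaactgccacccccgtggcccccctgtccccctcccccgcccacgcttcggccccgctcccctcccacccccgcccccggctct
Wnt11 (GRCm38.p6 chr7:98834862-98835111, plus strand): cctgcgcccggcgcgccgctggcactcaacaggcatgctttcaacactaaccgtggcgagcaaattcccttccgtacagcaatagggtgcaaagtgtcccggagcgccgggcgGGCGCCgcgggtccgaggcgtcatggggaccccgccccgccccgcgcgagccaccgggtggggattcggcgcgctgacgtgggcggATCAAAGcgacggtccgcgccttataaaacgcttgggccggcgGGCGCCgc
Wnt11 held a TCF/LEF match that begins 51 bases before the start, and also GGCGCC. Sfrp2 held CAGAC beginning 238 bases before the start, and Wnt16 held it 69 bases before. No match to these letters lies in the windows of Lgr6, Lgr4 and Wnt6. Of the genes at that level whose windows are not printed, Wnt2b, Wnt4 and Wnt2 held GGCGCC and Wnt7a held CAGAC. The other start site of Wnt11, also not printed, held CAGAC. Lgr5 had no RefSeq promoter to search. Over all 32851 promoters in the table, 14.8% of the 250-base windows held the TCF/LEF motif, 42.2% held CAGAC and 9.59% held GGCGCC, against 11.8%, 44.1% and 26.5% of the 34 windows of WNT genes. The printed windows are rich in G and C, from 55.6% in Lgr4 to 79.6% in Wnt6. This content was not computed for the other windows. A match is a run of letters, not a measured binding site.

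No WNT gene passed an adjusted p of 0.05 in edgeR, and 0% of all genes did, with a lowest adjusted p of 0.0838 over all genes. At an unadjusted p under 0.05, 11 of the 36 tested WNT genes differed (30.6%), against 13.9% of all genes tested. Of these, 3 were higher in the libraries labelled Cre (Lgr6, Wnt2b and Lgr4), against 7.3% of all genes, and 8 were lower (Wnt7a, Sfrp2, Lgr5, Wnt4, Wnt2, Wnt16, Wnt6 and Wnt11), against 6.58%. DESeq2 at an adjusted p under 0.05 called 2 of them higher (3.24% of all genes) and 8 lower (3%), leaving out Lgr4. The 2 floxed and the 2 Cre values did not overlap for 20 of the 36 genes, a share near the background of 48.3%: 9 were higher (background 24.7%) and 11 lower (background 23.6%). The median log2 fold change was -0.15 over the tested WNT genes and -0.033 over all genes tested.

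These counts change with the libraries entered. Without floxed 1, edgeR called 19 WNT genes at an adjusted p under 0.05, where 31.4% of all genes were called, and the median turned to 0.033. Without floxed 2 it called 17, where 21.8% of all genes were called. Both fits take the spread of the floxed group from the Cre libraries. Without either Cre library it called none, with the lone Cre library assumed to vary like the floxed pair.

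**Figure D1:**
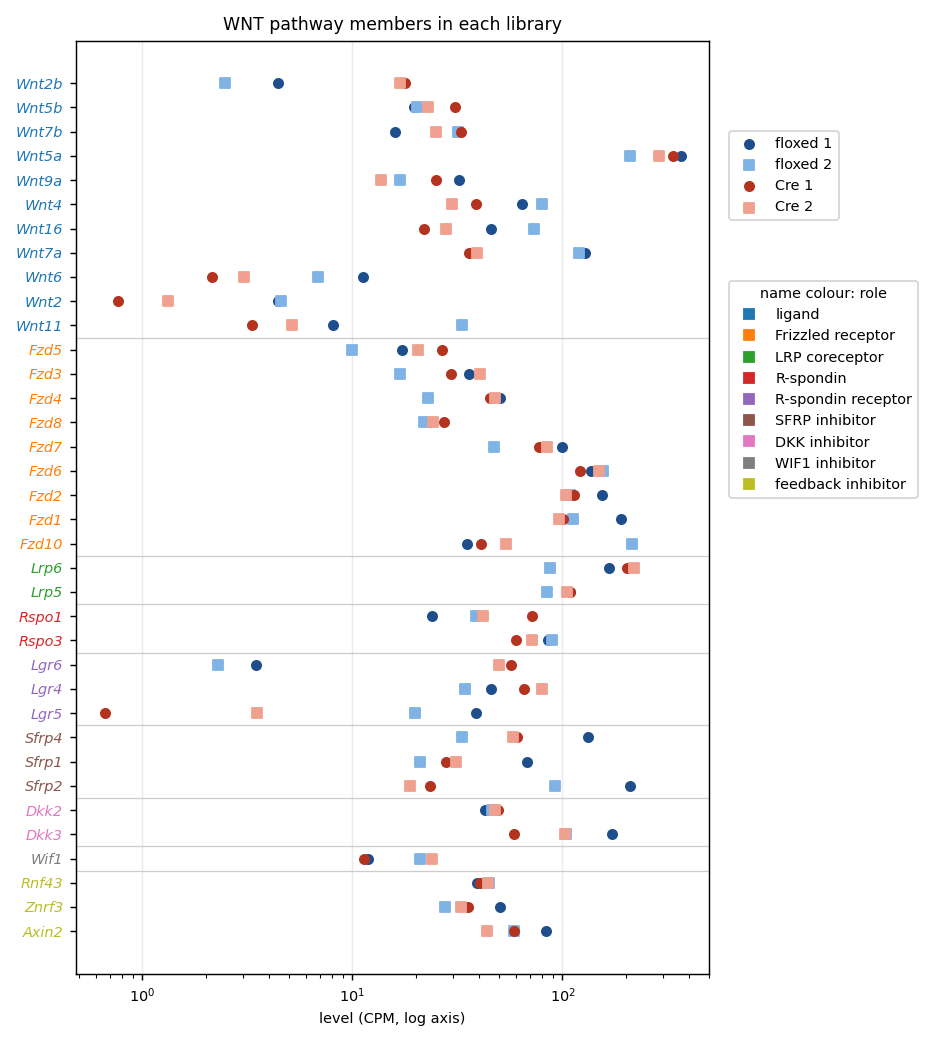
Level of each of the 36 tested WNT genes in each library (CPM, log axis), ordered by role and then by fold change; circles are replicate 1 and squares replicate 2 of the libraries labelled floxed (blue) and Cre (red). The red points of Lgr6 lie at 56.6 and 49.9 CPM and its blue points at 3.48 and 2.29 CPM, and those of Lgr5 are the other way round, while most Frizzled receptors have red and blue points mixed.

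Among the ligands, 11 of 16 were tested. Wnt7a and Wnt5a had the highest mean FPKM in the libraries labelled floxed, at 38.8 and 36.8. At an unadjusted p under 0.05, 6 ligands were lower in the libraries labelled Cre, where 6.58% of all genes were, and 1 was higher, where 7.3% of all genes were. Wnt2 and Wnt2b are among these 7 and passed the filter only through the group where they are high. The median log2 fold change over the 11 was -1.08. The other 4 tested ligands, Wnt5a, Wnt5b, Wnt7b and Wnt9a, did not pass this level.

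Wnt7a (chr6:91363981-91411363, minus strand), the ligand of the luminal epithelium, had 127.6 and 119.9 CPM in the floxed libraries and 35.7 and 39.3 CPM in the Cre libraries. The libraries of each group lay close together and the groups were far apart. The log2 fold change was -1.72 ± 0.20 (SE; edgeR unadjusted p = 0.000317, adjusted p = 0.0982), and it stayed between -1.79 and -1.66 when each library was left out in turn. Its share of the summed ligand FPKM was 28.1% and 28.3% in the floxed libraries and 11.1% and 14.1% in the Cre libraries.

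Wnt4 (chr4:137277489-137299726, plus strand), needed for the stromal decidual response, had 64.3 and 80.3 CPM in the floxed libraries and 38.8 and 29.7 CPM in the Cre libraries. Its log2 fold change was -1.08 ± 0.24 (edgeR unadjusted p = 0.00629, adjusted p = 0.181). Wnt16 (chr6:22288227-22298522, plus strand), a ligand also known from bone, had 45.8 and 73.3 CPM against 21.9 and 27.8 CPM, a log2 fold change of -1.26 ± 0.31 (edgeR unadjusted p = 0.00847, adjusted p = 0.206). For both ligands every floxed value lay above every Cre value.

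Wnt6 (chr1:74771892-74785322, plus strand) had 11.2 and 6.88 CPM in the floxed and 2.14 and 3.05 CPM in the Cre libraries, a log2 fold change of -1.80 ± 0.45 (edgeR unadjusted p = 0.0098, adjusted p = 0.216). Wnt2 (chr6:17988940-18030585, minus strand) had 4.42 and 4.59 CPM against 0.763 and 1.32 CPM. Its log2 fold change was -2.11 ± 0.50 (edgeR unadjusted p = 0.00766, adjusted p = 0.197). Their floxed values were above their Cre values in every library, and Wnt2 passed the filter only through the floxed group.

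Wnt11 (chr7:98835112-98855195, plus strand), a ligand linked to signalling without β-catenin, had 8.07 and 33.1 CPM in the floxed libraries and 3.31 and 5.13 CPM in the Cre libraries. The size of its difference rests on floxed 2, which was 4.1 times floxed 1. On the log2 scale it differed by -2.29 ± 0.73 (edgeR unadjusted p = 0.025, adjusted p = 0.286), and -0.95 without floxed 2. Of its exon bases, 8.8% overlap Gm8398 on the other strand, and whether the counting used strand is not given in the sources used here.

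Wnt2b (chr3:104945272-104961921, minus strand) was the ligand with the opposite direction. It had 4.42 and 2.46 CPM in the floxed libraries and 17.8 and 16.8 CPM in the Cre libraries. Its log2 fold change was 2.32 ± 0.41 (edgeR unadjusted p = 0.00199, adjusted p = 0.133) and ranged from 1.96 to 2.81 when each library was left out. Wnt2 and Wnt2b, the closely related pair of the family, had mean FPKM of 1.98 and 0.821 in the floxed libraries and of 0.46 and 4.09 in the Cre libraries, so that their order per length differed by group.

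Wnt5a, the ligand of the uterine mesenchyme that mostly acts without β-catenin, had 365.0 and 210.4 CPM in the floxed libraries and 334.9 and 286.6 CPM in the Cre libraries. Its groups overlapped, with a log2 fold change of 0.11 ± 0.34 (edgeR unadjusted p = 0.759). Wnt5a made up 32.5% and 20.1% of the ligands' summed FPKM in the floxed libraries against 42.4% and 41.7% in the Cre libraries. Wnt7b had 15.9 and 31.7 against 32.7 and 24.9 CPM, Wnt9a 32.1 and 16.8 against 24.9 and 13.7 CPM, and in both the groups overlapped. Wnt5b had 19.7 and 20.3 against 30.9 and 22.9 CPM, with a log2 fold change of 0.43 ± 0.26 (edgeR unadjusted p = 0.158). Of the exon bases of Wnt5a and Wnt7b, 4.58% and 6.61% overlap a gene on the other strand.

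The 5 ligands under the filter had few reads. Wnt10b had 0 and 2 counts in the floxed libraries and 16 and 12 in the Cre libraries, a ratio of CPM of 15.5 with a 95% exact counting interval of 3.91 to 134.3. Wnt9b had 2 and 2 counts against 15 and 5 (ratio 5.54, interval 1.85 to 22.3). These intervals cover counting error only, not the spread between libraries. Wnt8b had 11 and 1 against 1 and 2 counts, Wnt10a 6 and 1 against 4 and 1, and Wnt3 had 3 counts in Cre 2 and 0 in the other libraries, where a count of 0 allows up to 0.127 to 0.172 CPM.

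**Figure D2:**
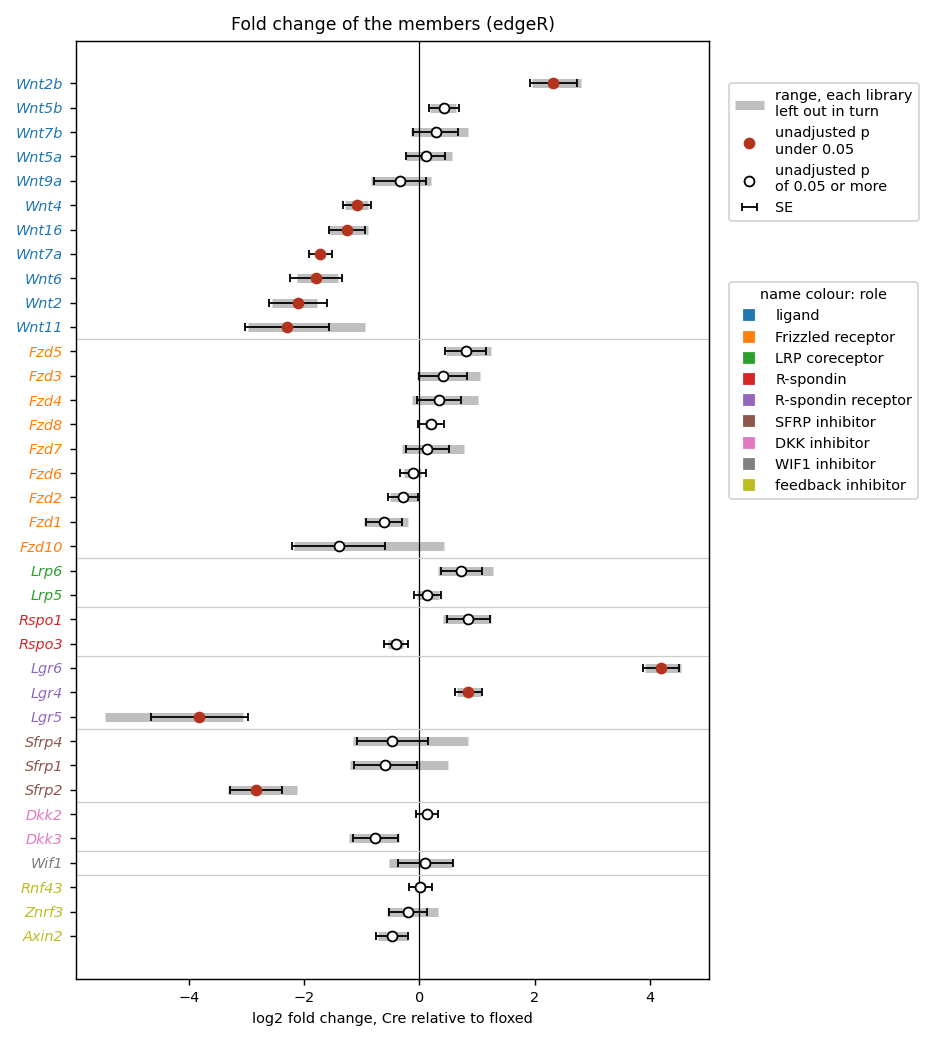
Log2 fold change of the 36 tested WNT genes, libraries labelled Cre relative to floxed, from edgeR, with bars for the SE and grey bands for the range when each library was left out in turn; filled points had an unadjusted p under 0.05. The band of Wnt7a lies on 1 side of 0, while that of Fzd10 runs from -2.18 to 0.42. Bands of Rspo3 and Dkk2, at an edgeR unadjusted p above 0.05, also lie on 1 side. So do those of Lgr6 and Wnt2b, which passed the filter only through the Cre group.

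The Frizzled receptors bind the ligands at the cell surface. None of the 9 tested had an unadjusted p under 0.05, where 13.9% of all genes tested did. Their log2 fold changes ran from -1.40 to 0.80 with a median of 0.14, and the groups overlapped for 6 of the 9. Over all genes tested, the groups did not overlap for 48.3%. Fzd1, Fzd2 and Fzd6 were high in both groups, with mean FPKM of 36.0, 35.8 and 30.1 in the floxed and 23.3, 29.4 and 27.9 in the Cre libraries.

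Among the 36 tested WNT genes, Fzd10 had the largest ratio between the libraries of a group, with 35.3 CPM in floxed 1, 215.2 in floxed 2, 40.9 in Cre 1 and 53.9 in Cre 2. Only floxed 2 stood apart. The log2 fold change of -1.40 ± 0.81 (edgeR unadjusted p = 0.142) became 0.42 without that library. In floxed 2, Fzd10 made up 37.8% of the Frizzled receptors' summed FPKM, against 6.58%, 9.86% and 12.3% in floxed 1, Cre 1 and Cre 2.

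Fzd1 had 190.0 and 112.2 CPM in the floxed and 100.8 and 95.8 CPM in the Cre libraries, a log2 fold change of -0.62 ± 0.31 (edgeR unadjusted p = 0.0993). Fzd6, a receptor of planar cell polarity, had 136.5 and 156.2 against 121.0 and 149.9 CPM, and 3.15% of its exon bases overlap a gene on the other strand. Fzd7 had 99.5 and 47.2 against 77.3 and 84.0 CPM, so that the Cre values lay between those of the floxed libraries. Fzd5 was highest in fold change, with 17.2 and 10.0 against 26.8 and 20.6 CPM and 0.80 ± 0.36 on the log2 scale (edgeR unadjusted p = 0.0748), and 17.8% of its exon bases overlap Gm38058 on the other strand.

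Fzd2, Fzd3, Fzd4 and Fzd8 had log2 fold changes of -0.28, 0.41, 0.34 and 0.20, each with an unadjusted p above 0.05. Fzd9 lay under the filter with 2 and 1 counts in the floxed libraries and 14 and 2 in the Cre libraries, so Cre 1 gave most of them.

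Neither coreceptor passed an unadjusted p of 0.05. Lrp6 had 166.8 and 87.6 CPM in the floxed and 203.6 and 218.6 CPM in the Cre libraries. Its groups did not overlap, with a log2 fold change of 0.73 ± 0.36 (edgeR unadjusted p = 0.0938). Lrp5 had 108.9 and 84.4 against 108.2 and 105.5 CPM, with overlapping groups and a log2 fold change of 0.14 ± 0.23 (edgeR unadjusted p = 0.552).

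Among the tested WNT genes, Lgr6 and Lgr5 had the largest log2 fold changes in size. Lgr6 was higher and Lgr5 lower in the libraries labelled Cre, each by over 3 on the log2 scale, and Lgr4 was higher to a lesser extent. LGR5 is a marker of epithelial stem and progenitor cells, LGR6 is known from progenitors of the skin, and LGR4 is the broadly expressed member.

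Lgr6 (chr1:134983301-135105276, minus strand) had 3.48 and 2.29 CPM in the floxed libraries and 56.6 and 49.9 CPM in the Cre libraries. The group means were 2.89 ± 0.842 and 53.2 ± 4.73 CPM (SD, n = 2 each). Every Cre value was far above every floxed value, and the libraries of each group were alike. The log2 fold change was 4.19 ± 0.32 (edgeR unadjusted p = 3.3e-05, adjusted p = 0.0919), an 18.3-fold difference, and ranged from 3.92 to 4.53 when each library was left out.

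Lgr5 (chr10:115450311-115587780, minus strand) had 38.6 and 19.9 CPM in the floxed libraries and 0.661 and 3.51 CPM in the Cre libraries. The groups did not overlap, but the libraries within each group differed, in the Cre group by 5.31 times. Cre relative to floxed, the log2 fold change was -3.82 ± 0.84 (edgeR unadjusted p = 0.00554, adjusted p = 0.176) with -5.46 without Cre 2 and -3.06 without Cre 1. DESeq2 gave an adjusted p of 3.5e-05 for Lgr5 and 1.9e-24 for Lgr6. Lgr5 passed the filter only through the floxed group and Lgr6 only through the Cre group. Each therefore had to differ to be tested, so these p-values are descriptions only.

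Lgr4 (chr2:109917647-110014257, plus strand) had 45.8 and 34.5 CPM in the floxed and 65.6 and 79.6 CPM in the Cre libraries, a log2 fold change of 0.85 ± 0.24 (edgeR unadjusted p = 0.0159, adjusted p = 0.249). Per length, Lgr4 was the highest of the 3 receptors in every library, with 64.6%, 72.0%, 57.3% and 64.0% of their summed FPKM in floxed 1, floxed 2, Cre 1 and Cre 2. The next receptor differed by group. Lgr5 held 31.2% and 23.9% in the floxed libraries but 0.331% and 1.62% in the Cre libraries, and Lgr6 held 4.22% and 4.12% against 42.4% and 34.4%.

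**Figure D3:**
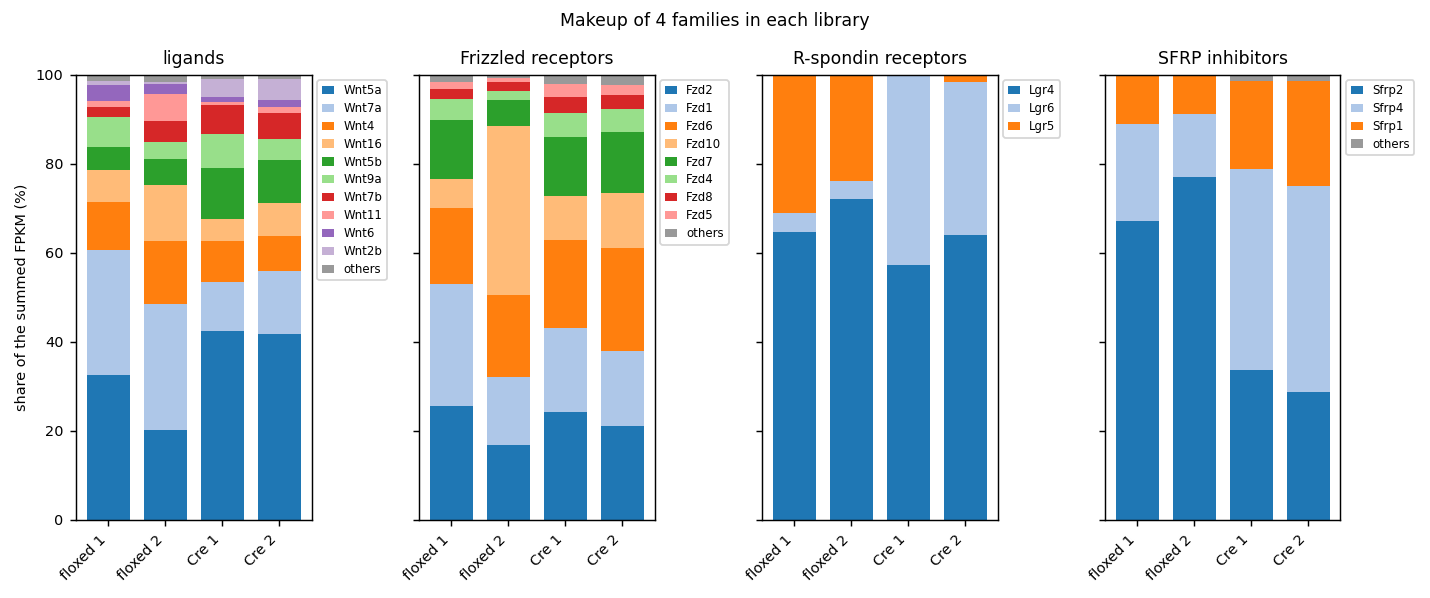
Share of each gene in the summed FPKM of its family (%), for the ligands, Frizzled receptors, R-spondin receptors and SFRP inhibitors in each library; genes under 3% in every library are joined as others. The Lgr5 part of the R-spondin receptors is 31.2% and 23.9% in the libraries labelled floxed and under 2% in those labelled Cre, where Lgr6 takes 42.4% and 34.4%.

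Of the R-spondins, the ligands of these receptors, Rspo1 and Rspo3 were tested. Rspo1 had 23.9 and 38.9 CPM in the floxed and 71.4 and 42.0 CPM in the Cre libraries, a log2 fold change of 0.85 ± 0.37 (edgeR unadjusted p = 0.0688). Rspo3 had 85.3 and 89.3 against 60.0 and 71.5 CPM, a log2 fold change of -0.41 ± 0.21 (edgeR unadjusted p = 0.104), with 13.1% of its exon bases under Gm48159 on the other strand. The groups did not overlap for either gene, though Cre 2 and floxed 2 were close for Rspo1. Rspo1 made up 30.8% and 41.0% of the summed R-spondin FPKM in the floxed libraries and 65.4% and 48.3% in the Cre libraries. Rspo2 and Rspo4 had 7 and 3 counts in all 4 libraries together.

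Among the secreted inhibitors, Sfrp2 was lower in the libraries labelled Cre and the others did not pass an unadjusted p of 0.05. This was 1 of 6 tested (16.7%), against 13.9% of all genes. Sfrp2 (chr3:83766321-83774316, plus strand), a ligand-binding inhibitor made by stromal fibroblasts, had 209.8 and 92.5 CPM in the floxed and 23.4 and 18.7 CPM in the Cre libraries. Both floxed values were far above the Cre values, although floxed 1 was 2.27 times floxed 2. The log2 fold change was -2.84 ± 0.45 (edgeR unadjusted p = 0.0013, adjusted p = 0.114), a 7.18-fold difference, with -2.13 without floxed 1 and -3.32 without floxed 2. Of its exon bases, 16.1% overlap Gm26771 on the other strand.

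Sfrp4 and Sfrp1 were among the WNT genes that differed most between the floxed libraries, by 3.95 and 3.24 times. The median over the tested WNT genes was 1.67-fold. Sfrp4 had 131.8 and 33.4 CPM in the floxed and 60.9 and 58.1 CPM in the Cre libraries, and Sfrp1 had 68.0 and 21.0 against 28.0 and 31.1 CPM. In both genes the Cre values lay between the floxed ones. The log2 fold changes of -0.47 and -0.59 became 0.84 and 0.49 without floxed 1. Sfrp2 held 67.2% and 76.9% of the summed SFRP FPKM in the floxed libraries and 33.6% and 28.8% in the Cre libraries, where Sfrp4 held the most. Sfrp5 lay under the filter, with 23 counts in the floxed and 33 in the Cre libraries.

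Dkk3, a divergent member of the DKK family, had 171.6 and 103.7 CPM in the floxed and 58.5 and 102.7 CPM in the Cre libraries, a log2 fold change of -0.77 ± 0.39 (edgeR unadjusted p = 0.103). Dkk2 had 42.7 and 46.3 against 49.4 and 47.6 CPM (log2 fold change 0.13 ± 0.19). Dkk1, an LRP-binding antagonist, had 1 count in floxed 2 and 0 in the other libraries, and Dkk4 had 3 counts in Cre 2 alone. Wif1, which binds the ligands directly, had 11.8 and 21.0 against 11.3 and 23.8 CPM, so that the second library of each group was near the other (log2 fold change 0.10 ± 0.48).

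The feedback inhibitors are themselves induced by β-catenin signalling and are often read as its output. Axin2, the scaffold of the β-catenin destruction complex, had 83.4 and 58.5 CPM in the floxed and 58.8 and 43.8 CPM in the Cre libraries. The groups overlapped narrowly, with a log2 fold change of -0.47 ± 0.28 (edgeR unadjusted p = 0.151), and 3.8% of its exon bases overlap Gm11670. Rnf43 had 39.3 and 44.7 against 40.7 and 44.0 CPM (log2 fold change 0.014 ± 0.20), and Znrf3 50.5 and 27.5 against 35.5 and 33.0 CPM (-0.19 ± 0.33). In all 3 the groups overlapped.

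The spread within each group was compared for the 36 tested genes. Floxed 1 and floxed 2 differed by a median of 1.67-fold over the WNT genes and 1.36-fold over all genes, and 8 WNT genes (22.2%) differed by over 2-fold, against 19.3% of all genes. Cre 1 and Cre 2 differed by a median of 1.23-fold, against 1.15-fold over all genes, and only Lgr5 and Wif1 (5.56%) differed by over 2-fold, against 2.73% of all genes. The 8 genes in the floxed pair were Fzd10, Wnt11, Sfrp4, Sfrp1, Sfrp2, Fzd4, Fzd3 and Fzd7, named after their values were seen. Fzd10 and Wnt11 were higher in floxed 2, and the other 6 were higher in floxed 1.

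**Figure D4:**
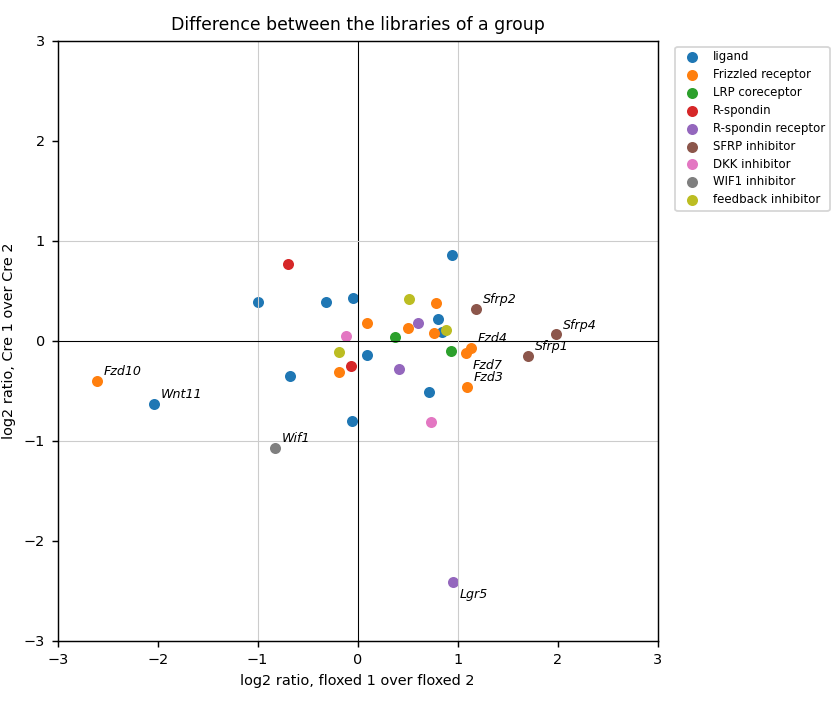
Log2 ratio of the libraries labelled floxed (1 over 2, horizontal) against that of the libraries labelled Cre (1 over 2, vertical) for each tested WNT gene, coloured by role; grey lines mark 2-fold. Fzd10 and Wnt11 lie far left and Sfrp4 and Sfrp1 far right, while in the vertical direction only Lgr5 and Wif1 lie outside the grey lines.

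Marker genes of several cell types differed between the same libraries. Over all genes tested, 24.7% had higher values in both Cre libraries than in both floxed libraries. At an unadjusted p under 0.05, 7.3% of all genes were higher and 6.58% lower. Summed over 12 smooth muscle markers, the floxed libraries had 4544.6 to 5517.7 CPM and the Cre libraries 8305.4 to 9499.3 CPM, and all 11 tested markers had higher values in both Cre libraries, 5 of them at an unadjusted p under 0.05, of which Casq2 passed the filter only through the Cre group. Over 8 mesothelial markers the sums were 126.7 to 205.7 and 238.1 to 301.4 CPM, with 7 of 8 higher at that level, of which Bnc1 and Krt14 passed the filter only through the Cre group. Krt14 rested on Cre 1, with 236 counts there and 8 in Cre 2. The remaining marker, Wt1, gave most of the floxed sums, at 144.9 and 80.4 CPM. It had 93.4 and 117.7 CPM in the Cre libraries, with overlapping groups and a log2 fold change of -0.094. Over the 12 oviduct and ovary markers in the tables the sums were 111.0 to 230.8 and 380.9 to 1070.2 CPM, with 3 of 7 tested higher, of which Foxj1 and Hsd3b1 passed only through the Cre group. Ovgp1 gave most of the Cre sums, at 201.2 and 868.7 CPM, and stood at 1.7 and 86.8 CPM in the floxed libraries. Foxl2, at 54.7 and 56.2 CPM, and Pax8, at 39.1 and 70.5 CPM, gave most of the floxed sums. The groups of Foxl2, Pax8 and Inha overlapped, with log2 fold changes of 0.023, -0.44 and 0.88. Hsd3b1 was at 0 in both floxed libraries, Cyp11a1 at 0 in floxed 2 and Zp3 at 0 in every library. The glandular sum was 303.8 to 495.6 against 230.3 to 263.8 CPM, with Prss29 at 0 in both floxed libraries. Sox17 and Aldh1a1 gave most of this sum, and the groups of Aldh1a1 overlapped. The glandular markers did not move together: Sox17 and Cxcl15 were lower in both Cre libraries, Gjb1 was higher in both, and Foxa2 overlapped. Leukocyte markers summed to 597.3 to 1023.1 against 483.0 to 561.6 CPM, with 5 of 11 lower, of which Cd8a, Cd4 and S100a8 passed only through the floxed group.

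The luminal epithelial sum overlapped, at 2363.7 to 4413.9 and 2915.1 to 3330.7 CPM, with 2 of 13 markers lower (Cldn3 and Cldn4). These 2 were 15.4% of the list, near the 13.9% of all genes in either direction. The stromal sum was 4041.4 to 6315.0 against 7416.6 to 7698.6 CPM, with 2 of 10 higher and 1 lower. In the Cre libraries, the highest were Dcn, at 3022.5 and 3173.5 CPM with overlapping groups, and Col6a4, at 1895.2 and 1286.1 CPM. The stromal markers did not go 1 way: Col6a4, Lum, Pgr and Esr1 had higher values in both Cre libraries, and Pdgfra, Hoxa10, Hoxa11 and Hand2 had lower values in both. Endothelial sums were 561.3 to 667.5 and 571.9 to 611.0 CPM, and adipocyte sums 121.2 to 259.5 and 139.7 to 270.5 CPM. The part of these markers in the differences of Lgr6, Lgr5, Wnt7a, Sfrp2 and the other WNT genes was not tested. In bulk tissue, fewer cells of a type and less RNA per cell cannot be told apart.

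The other genes of the pathway were read from 4 lists. In the signalling core inside the cell, 26 of 28 genes were tested, of which 2 (7.69%) were higher and none lower at an unadjusted p under 0.05, against 13.9% of all genes, with a median log2 fold change of 0.19. Tle2, a corepressor of TCF/LEF, had 5.23 and 4.36 CPM in the floxed and 15.1 and 13.9 CPM in the Cre libraries (log2 fold change 1.59 ± 0.32, edgeR unadjusted p = 0.00376), and it passed the filter only through the Cre group. Gsk3b, a kinase that marks β-catenin for destruction, had 139.1 and 90.5 against 198.6 and 221.0 CPM (0.87 ± 0.29, edgeR unadjusted p = 0.0282). Ctnnb1, the gene of β-catenin itself, had 771.1 and 942.2 against 774.0 and 791.6 CPM, with overlapping groups. Lef1 lay under the filter, at 18.2 and 5.45 CPM in the floxed and 2.54 and 2.48 CPM in the Cre libraries.

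Of 12 genes for WNT secretion and other coreceptors, 11 were tested, and 1 (9.09%) was higher and none lower at that level, against the same 13.9%, with a median of -0.0055. Ror2, the receptor tyrosine kinase that WNT5A acts through, had 50.3 and 62.4 CPM in the floxed and 243.9 and 206.0 CPM in the Cre libraries. The groups were far apart, with a log2 fold change of 2.00 ± 0.25 (edgeR unadjusted p = 0.000375, adjusted p = 0.0982) and a range of 1.85 to 2.15 when each library was left out. Porcn, which adds the lipid to WNT ligands, had 21.2 and 81.5 against 52.0 and 37.8 CPM, and Wls, which carries them to the cell surface, had 320.2 and 394.0 against 232.8 and 271.6 CPM (log2 fold change -0.50 ± 0.26, edgeR unadjusted p = 0.11).

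Of 12 further inhibitors listed, 11 symbols are in the tables and 8 were tested; 3 were lower and 1 higher at that level, against 13.9% of all genes in either direction, with a median of -0.32. Notum, an enzyme that removes the lipid from WNT ligands, had 7.99 and 3.67 CPM in the floxed and 0.356 and 0.979 CPM in the Cre libraries (log2 fold change -3.13 ± 0.73, edgeR unadjusted p = 0.00696, with -2.46 without floxed 1 and -4.01 without Cre 2). It passed the filter only through the floxed group. Apcdd1, a membrane inhibitor, had 422.2 and 163.5 against 75.8 and 89.8 CPM (-1.82 ± 0.49, edgeR unadjusted p = 0.0126, and -0.98 without floxed 1). Nkd2, which acts on Dishevelled, had 112.4 and 44.2 against 26.8 and 28.5 CPM (-1.50 ± 0.46, edgeR unadjusted p = 0.0213, and -0.68 without floxed 1). In all 3, every floxed value lay above every Cre value, and floxed 1 was the highest.

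Trabd2b, a protease that cuts WNT ligands, was higher, with 16.8 and 10.3 against 49.6 and 42.9 CPM (1.77 ± 0.31, edgeR unadjusted p = 0.00211). Frzb had 27.3 and 22.3 against 33.7 and 33.7 CPM and Nkd1 81.8 and 51.2 against 62.5 and 47.9 CPM, and neither passed that level. Sostdc1 lay under the filter with 6 counts in the floxed and 19 in the Cre libraries.

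Of 20 genes listed as transcriptional targets of the pathway, 16 were tested, and 3 were lower and 1 higher at that level (25.0%, against 13.9% of all genes), with a median of -0.28. Sp5, a transcription factor induced by β-catenin in many tissues, had 16.8 and 7.91 CPM in the floxed and 2.85 and 3.0 CPM in the Cre libraries (log2 fold change -2.08 ± 0.49, edgeR unadjusted p = 0.00725, and -1.43 without floxed 1). Mmp7, an epithelial protease, had 13.9 and 12.4 against 5.7 and 5.36 CPM (-1.25 ± 0.31, edgeR unadjusted p = 0.00961). Tnfrsf19 (TROY) had 144.3 and 91.7 against 59.3 and 73.2 CPM (-0.83 ± 0.30, edgeR unadjusted p = 0.0365). Sox9, a transcription factor of progenitor and glandular epithelium, went the other way, with 9.14 and 23.7 against 33.7 and 46.6 CPM (1.29 ± 0.50, edgeR unadjusted p = 0.0459, with 0.76 without floxed 1 and 2.13 without floxed 2).

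**Figure D5:**
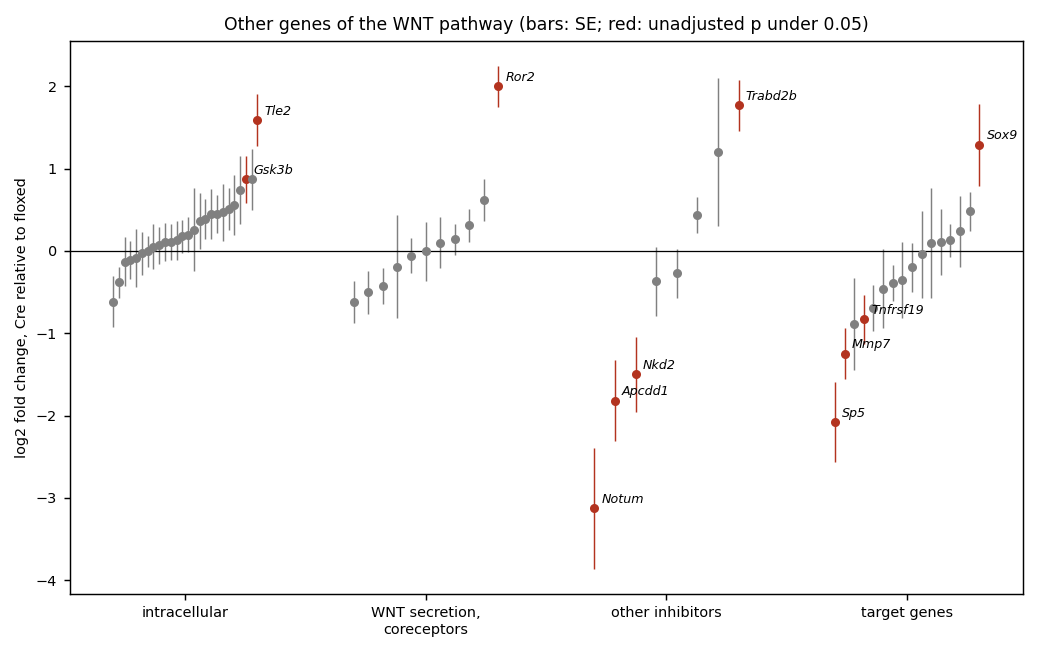
Log2 fold change, libraries labelled Cre relative to floxed, of the tested genes of the 4 other WNT pathway lists, ordered by value within each list, with bars for the SE; named points in red had an unadjusted p under 0.05. Notum lies lowest at -3.13 and Ror2 highest at 2.00, and most genes of the intracellular core lie near 0.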

How the data were processed

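RNA-seq tables of 4 libraries, 2 labelled floxed and 2 labelled Cre, held a count and an FPKM value for each of 28545 genes. The deposited counts are whole reads per gene, and the deposited FPKM values equal those counts scaled by gene length and depth. Per the submitters' processing notes, HISAT2, HTSeq 0.13.5 and GRCm38 were used; whether the counting used strand is not given in the sources used here.

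Counts of genes whose FPKM averaged at least 1 (13513 genes, 15032 set aside) were tested with edgeR 4.0.16 (TMM scaling, quasi-likelihood test, group only, 2 residual degrees of freedom, two-sided, Benjamini-Hochberg) in R 4.3.3, and the WNT genes were read from that fit. The scripts were tested on simulated data. An exact permutation test of 2 against 2 libraries cannot go below p = 0.333. Alternatives were other scalings, no filter, a mean FPKM of at least 5, DESeq2 1.42.0, limma 3.58.1 on log2(FPKM + 1) and log2(FPKM + 0.1), the replicate number as a block, and each library left out. Intervals and floors (3 counts at a count of 0) cover counting error only. Gene positions and overlaps come from GENCODE (GRCm38) and promoter sequences from RefSeq.

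The members and lists were chosen with earlier results of these data known. Values per library are given for WNT genes with an unadjusted p under 0.05 or with non-overlapping groups and a log2 fold change of at least 1, and for a fixed set known in the uterus or pathway; other values were added after they were seen. Of the other pathway lists, genes with an unadjusted p under 0.05 and 9 fixed genes are given.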

Additional observations from a re-analysis of the deposited data

How the results depend on the processing

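Each group has 2 libraries, which limits every call, and the biological coefficient of variation over all genes was 0.403 in the floxed pair and 0.163 in the Cre pair. The number of WNT genes at an adjusted p under 0.05 was 0 in edgeR, 12 with no filter on low genes (of 47 WNT genes tested, against 7.04% of all genes), 10 with DESeq2 (6.24%), and 0 to 19 when each library was left out; it stayed 0 under the other scalings, both limma fits, the stricter filter and the replicate block. Those higher at an unadjusted p under 0.05 went from 3 to 7 with no filter, to 1 with a mean FPKM of at least 5 (26 WNT genes tested), and to 2 without Cre 1 and 12 without floxed 1, where 2.7% and 22.3% of all genes were higher. Those lower went from 8 to 12 with no filter, to 4 with the stricter filter, and to 4 without Cre 1 and 16 without floxed 2, where 2.17% and 15.7% of all genes were lower. At the same unadjusted level, 7.92% of all genes were higher and 7.41% lower with no filter. With the stricter filter, 6.43% of all genes were higher and 6.18% lower. The cause of the shifts in the WNT counts was not tested, beyond the change in the genes or libraries entered. The median log2 fold change of -0.15 ran from -0.28 to 0.033 with each library left out, so its sign changed. No alternative moved it from -0.15 by more than the spread of the library medians (0.253). That spread comes from the same libraries, so it cannot show that the median is stable.

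Of the 53 genes given with a fold change, 36 kept their direction under every alternative that tested them. Rnf43 was -0.044 with no filter, and Porcn was 0.069 and 0.09 in the limma fits and 0.088 with the replicate block, against 0.014 and -0.19. With each library left out, the values ran from -2.18 to 0.42 for Fzd10, -0.041 to 1.05 for Fzd3, -0.13 to 1.01 for Fzd4, -0.27 to 0.028 for Fzd6, -0.31 to 0.77 for Fzd7, -0.035 to 0.34 for Lrp5, -0.076 to 0.10 for Rnf43, -1.21 to 0.49 for Sfrp1, -1.15 to 0.84 for Sfrp4, -0.53 to 0.57 for Wif1, -0.24 to 0.56 for Wnt5a, -0.14 to 0.85 for Wnt7b, -0.84 to 0.20 for Wnt9a, -0.57 to 0.32 for Znrf3, -0.27 to 0.014 for Ctnnb1, -0.86 to 1.07 for Porcn and -0.57 to 0.11 for Nkd1. Replicate numbers do not pair the libraries by the labels, and deviations of same-numbered libraries correlated at -0.0829; the replicate block called 0 WNT genes, with 3 higher and 8 lower before adjustment.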
